A study of Mus musculus with 12 samples.

Results

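The Serpina1 and Serpina3 genes with Serpina6 are secreted serpins of clade A. The 10 genes Serpina1a, Serpina1b, Serpina1c, Serpina1d, Serpina1e, Serpina3k, Serpina3m, Serpina3n, Serpina3c and Serpina6 were taken by symbol from a table of 55450 genes, by a rule that used no measured value, although earlier results of these data were known when they were proposed. Total RNA from the brains and livers of 7 to 9 week old males was sequenced in 4 groups of 3 libraries: wild-type brain, knockout brain, wild-type liver and knockout liver. The knockout animals carried the genotype vaultrc5-/-, the loss of a small non-coding RNA of the vault particle. The control libraries were labelled wild-type for genotype and "flx" in their titles, and no strain or Cre line was named. The labels did not say that replicates came from separate animals, so p-values measure the spread between these libraries, which may be technical.

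Serpins inhibit proteases by offering an exposed stretch near their C terminus, the reactive centre loop, as bait, and the cut serpin then traps the protease. Hepatocytes secrete most clade A serpins into the blood. Serpina1 encodes alpha-1-antitrypsin, the main blood inhibitor of neutrophil elastase. The gene is duplicated in tandem in the mouse, as is the gene for alpha-1-antichymotrypsin, whose copies are the Serpina3 genes. Serpina6 encodes corticosteroid-binding globulin, which carries glucocorticoids in blood and has no known inhibitory role. Serpina3n is an acute-phase gene of the liver and a marker of reactive astrocytes in the brain.

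All 10 members lie on chromosome 12 within 767.7 kb, from 103646630 to 104414329 (GRCm38, GENCODE M21). The 5 Serpina1 genes span 230.82 kb on the minus strand, and the 4 Serpina3 members span 267.948 kb beyond them. Serpina6 (103646630 to 103657212, minus strand) lies on the other side of the Serpina1 genes. The coding sequences of the Serpina1 genes were 96.3% to 98.5% identical in pairs, with Serpina1a and Serpina1c the closest pair. Those of the Serpina3 members were 82.9% to 91.7% identical, with Serpina3k and Serpina3m the closest. The 60 coding bases with the most differences among the Serpina1 genes lay near the end of the coding sequence, and they are shown because no other stretch of this length differs more among the paralogs. Capitals mark the 18 positions that differ in at least 1 of the 5 genes, where the median window of this length had 4. All lie on the minus strand of GRCm38, at chr12:103853757-103853816 for Serpina1a, chr12:103728324-103728383 for Serpina1b, chr12:103895094-103895153 for Serpina1c, chr12:103763762-103763821 for Serpina1d and chr12:103947100-103947159 for Serpina1e.
Serpina1a: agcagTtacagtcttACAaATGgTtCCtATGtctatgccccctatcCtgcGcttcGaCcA
Serpina1b: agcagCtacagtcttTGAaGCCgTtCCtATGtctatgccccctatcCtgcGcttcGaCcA
Serpina1c: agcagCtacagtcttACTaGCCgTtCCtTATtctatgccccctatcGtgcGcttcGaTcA
Serpina1d: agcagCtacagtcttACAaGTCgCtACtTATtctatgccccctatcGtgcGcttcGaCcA
Serpina1e: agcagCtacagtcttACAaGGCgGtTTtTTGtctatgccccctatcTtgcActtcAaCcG

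The same search among the Serpina3 members also ended near the end of the coding sequence. There 27 of 60 positions differed, against a median of 10 over all windows. The stretches lie on the plus strand at chr12:104345327-104345386 (Serpina3k), chr12:104393833-104393892 (Serpina3m) and chr12:104413512-104413571 (Serpina3n), and on the minus strand at chr12:104147273-104147332 (Serpina3c), with capitals at the positions that differ.
Serpina3k: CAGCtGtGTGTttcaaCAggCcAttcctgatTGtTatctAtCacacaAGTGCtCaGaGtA
Serpina3m: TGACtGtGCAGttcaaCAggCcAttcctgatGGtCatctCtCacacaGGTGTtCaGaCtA
Serpina3n: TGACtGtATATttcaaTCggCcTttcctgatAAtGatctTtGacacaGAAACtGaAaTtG
Serpina3c: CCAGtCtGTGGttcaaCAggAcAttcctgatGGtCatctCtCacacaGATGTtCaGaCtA

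Sequence this similar limits how well short reads can be given to 1 gene. Of all 75-base windows of the annotated transcripts, 33.9% were found in no other gene for Serpina1c, 50.7% for Serpina1a, 62.9% for Serpina1d, 80.3% for Serpina1e and 81.0% for Serpina1b. For Serpina3k the share was 92.6%, for Serpina3m 90.3%, for Serpina3n 98.5%, for Serpina3c 99.7% and for Serpina6 100%. By this share the Serpina1 genes were the hardest to tell apart and Serpina6 the easiest. Serpina3k and Serpina3m also share 60 annotated exon bases on the same strand. Serpina1c overlaps B430119L08Rik, a gene on the other strand, by 429 exon bases, and the use of strand in counting was not given in the sources used here.

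**Figure D1:**
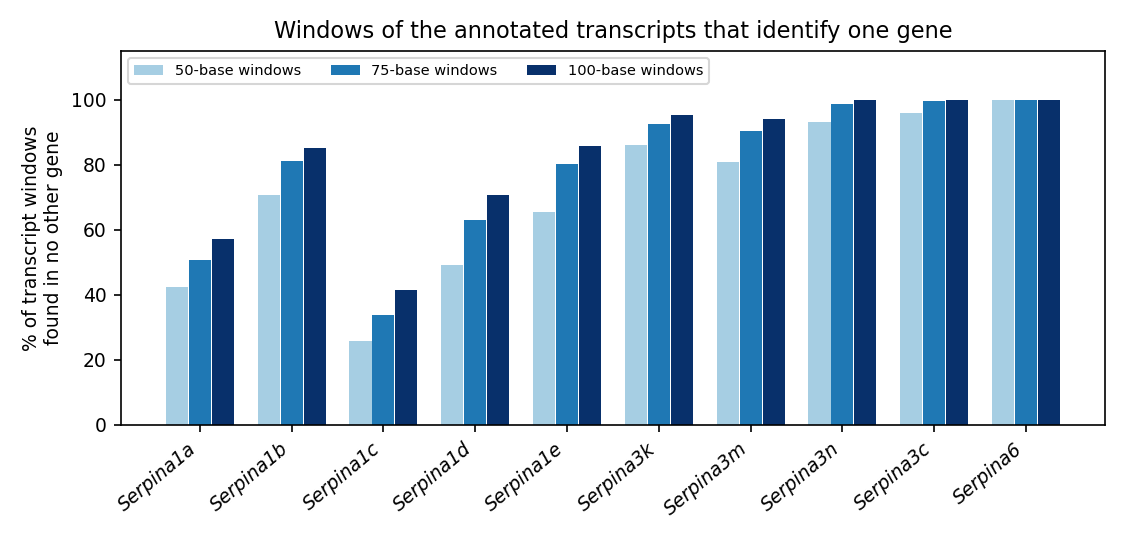
Share of transcript windows of 50, 75 and 100 bases (bars, percent on the y axis) found in no other annotated gene, for each of the 10 members on the x axis. The Serpina1 genes had the lowest shares, with Serpina1c at 33.9% of 75-base windows, and Serpina6 reached 100%.

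The deposited values were expected counts, and shared reads left fractions in them. In the 6 liver libraries the counts of Serpina1a, Serpina1b, Serpina1d, Serpina1e, Serpina3k, Serpina3m and Serpina3n were fractional in 6 of 6, and those of Serpina1c in 5 of 6, counting any deposited value that was not exactly whole. Those of Serpina3n lay at most 0.05 from a whole number. Serpina3c and Serpina6 had whole counts in all 6. The sum of the 5 Serpina1 rows was whole in 0 of 6 liver libraries. With the pseudogene Gm8893 (chr12:103817856-103822243, minus strand), which lies among the Serpina1 genes and received 344 to 764 counts, the sum was whole in 6 of 6. Sums were called whole within 0.05, since they add the rounding of several rows. Serpina3k and Serpina3m summed to a whole number in 5 of 6. Values of single Serpina1 genes, and of Serpina3k and Serpina3m, therefore carry an uncertainty of read assignment that replicate errors do not show, and sums over a cluster are given beside them.

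Brain libraries held 14844971 to 18567381 counts and liver libraries 23247449 to 27155480. Vaultrc5, the targeted gene, was counted 33, 39 and 48 times in wild-type livers, 4, 1 and 4 times in wild-type brains, and 0 times in all 6 knockout libraries. The 7 hepatocyte markers (Alb, Apoa1, Apob, Cps1, Tat, Pck1 and Cyp2e1) summed to between 59741 and 86019 CPM (counts scaled to a common library size) in liver and to at most 3.99 CPM in brain. The 5 neuron markers summed to between 4066 and 5528 CPM in brain. Among the livers, knockout liver 2 stood apart: it had the highest value of all 6 livers for 7 of 7 acute-phase genes, with a summed level of 8075 CPM against at most 2056 CPM in the other livers.

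In liver the members ranged from among the most abundant transcripts to nearly absent. The 5 Serpina1 rows together took 2.16%, 2.34% and 2.02% of all counts in wild-type livers 1, 2 and 3, and 2.41%, 2.57% and 2.19% in knockout livers 1, 2 and 3. Serpina3k, which encodes contrapsin, alone took between 0.552% and 0.834%. CPM scaled by TMM within a tissue are used for levels below, and CPM per kb of exon where genes are compared.

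On the CPM per kb scale, the order in wild-type liver was led by Serpina1e at 4168 ± 1335 (SD, n = 3) and Serpina1c at 4082 ± 560, whose ranges overlapped. Serpina3k followed at 3113 ± 490, and its range of 2591 to 3563 lay below that of Serpina1c but overlapped that of Serpina1e, which began at 3169.7. Serpina1a at 1833 ± 98.9 and Serpina1d at 1828 ± 237 did not differ beyond their spread, and Serpina1b stood below them at 1357 ± 117. A wide gap separated these 6 genes from Serpina3n at 124 ± 14.7, Serpina3m at 91.4 ± 9.25 and Serpina6 at 83.4 ± 19.997 CPM per kb. The ranges of Serpina3m and Serpina6 overlapped, and Serpina3c was last at 0.111 ± 0.0398. The order depended on the length used. Per kb of the shortest transcript with a full coding sequence, Serpina1a reached 2469 ± 133 and Serpina1b 2350 ± 203, with overlapping ranges that both lay above that of Serpina1d at 1828 ± 237. Serpina1e reached 5204 ± 1667 on that scale, and its lowest value of 3958 then lay above the range of Serpina3k on the exon scale.

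**Figure D2:**
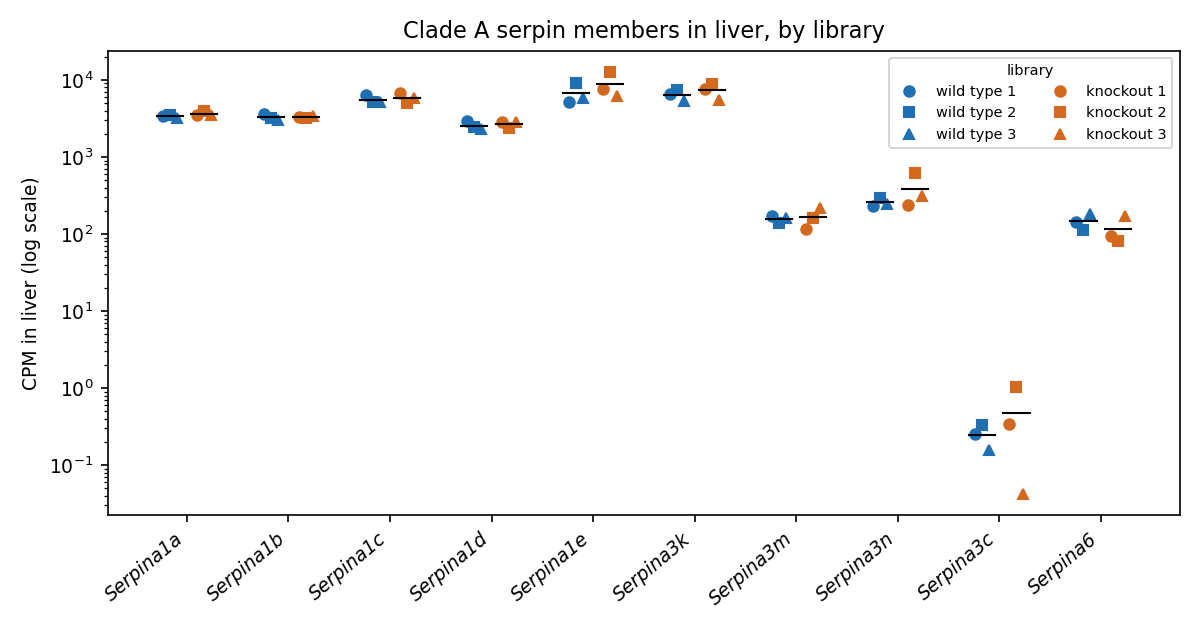
CPM in liver on a log scale (y axis) for the 10 members (x axis), with 1 point per library (blue wild type, orange knockout, shape by replicate number) and a bar at each group's mean. Serpina1 genes and Serpina3k lie at 2289 CPM or above, Serpina3c lies near 1 CPM or below, and in every member the points of both genotypes overlap.

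Among the alpha-1-antitrypsin genes, Serpina1e varied more across livers than the other 4. Serpina1a was at 3394, 3518 and 3161 CPM in wild-type livers 1, 2 and 3 and at 3491, 3981 and 3515 CPM in the knockout livers. Serpina1b was at 3594, 3184 and 3051 CPM in wild-type livers and at 3346, 3213 and 3364 CPM in knockout livers. For Serpina1a the highest liver was 1.26 times the lowest and for Serpina1b 1.18 times, and the genotypes overlapped.

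Serpina1c had 6435, 5101 and 5130.3 CPM in wild-type livers and 6694, 5077 and 5788 CPM in knockout livers. Serpina1d had 2921, 2436 and 2289 CPM in wild-type livers and 2821, 2397 and 2838 CPM in knockout livers. The highest liver was 1.32 times the lowest for Serpina1c and 1.28 times for Serpina1d. Serpina1a to Serpina1d summed varied only 1.20-fold over the 6 livers, a sum from which reads shared with Serpina1e are not removed.

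Serpina1e had 5125, 9191 and 5902 CPM in wild-type livers 1, 2 and 3 and 7636, 12735 and 6166 CPM in knockout livers 1, 2 and 3. The highest liver was 2.48 times the lowest, and the library numbered 2 was the highest of its genotype in both. The share of Serpina1e among the Serpina1 counts was 23.9%, 39.2% and 30.2% in wild-type livers and 31.8%, 46.5% and 28.5% in knockout livers. Serpina1a kept 14.5% to 16.2% of the counts throughout. The hepatocyte marker sum was the lowest of its genotype in the libraries numbered 2, at 69709 CPM in wild-type livers and 59741 CPM in knockout livers. The markers were split: Alb, Cps1 and Cyp2e1 were lowest there in both genotypes, and Apoa1, Apob, Tat and Pck1 were not. Alb made up 38997 and 30374 CPM of these sums, and Apob was highest there, at 15257 and 15996 CPM. The part of these markers in the Serpina1e values was not tested.

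**Figure D3:**
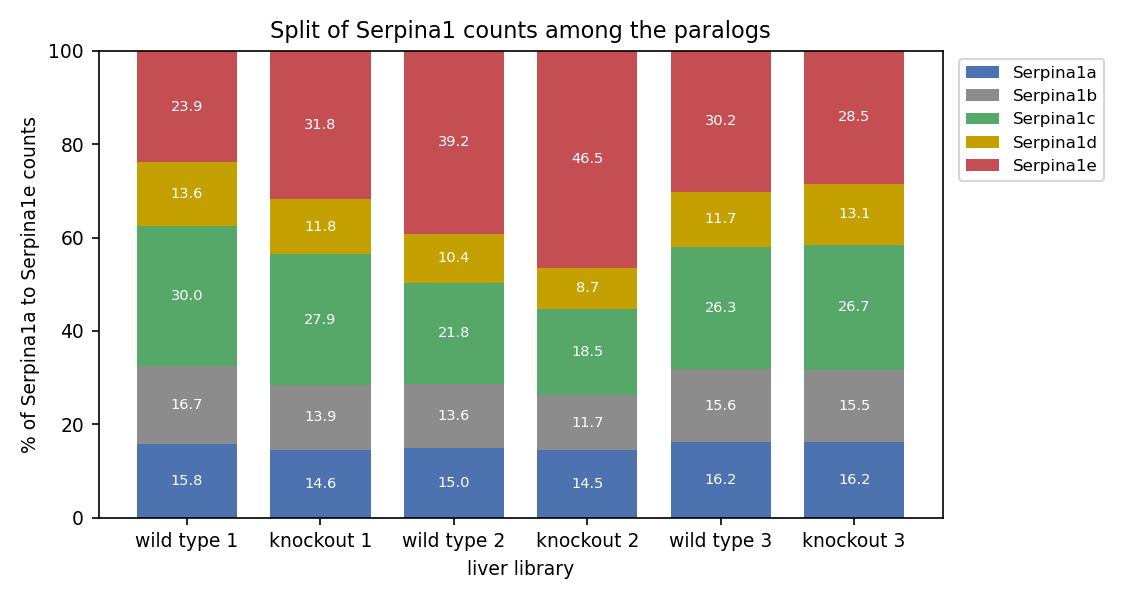
Stacked bars give the percent of Serpina1a to Serpina1e counts (y axis) that each paralog received in each liver library (x axis, same-numbered wild-type and knockout libraries side by side). The Serpina1e part ranged from 23.9% in wild-type liver 1 to 46.5% in knockout liver 2.

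Of the antichymotrypsin-like genes, Serpina3k was likewise highest in the libraries numbered 2, with 6549, 7330.0 and 5329 CPM in wild-type livers and 7535, 8893 and 5505 CPM in knockout livers. Its paralog Serpina3m had 170.4, 139 and 161 CPM in wild-type livers and 116, 163 and 218 CPM in knockout livers. The highest Serpina3m value was in knockout liver 3, where Serpina3k was the lowest of the knockouts. Serpina3n had 233, 291 and 247 CPM in wild-type livers and 239, 613 and 308 CPM in knockout livers. Serpina3c had 6, 9 and 4 counts in wild-type livers and 9, 24 and 1 counts in knockout livers, close to the limit of 3 counts below which no fold is given.

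Serpina6 moved the other way across libraries. It had 145, 113 and 183 CPM in wild-type livers 1, 2 and 3 and 95.05, 81.2 and 170.4 CPM in knockout livers 1, 2 and 3. The library numbered 2 was the lowest and the one numbered 3 the highest in both genotypes.

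The promoters of the Serpina1 genes were also alike. RefSeq promoter sequences (GRCm38.p6) were matched for 7 of the 10 members, namely the Serpina1 genes, Serpina3n and Serpina3c. Over the bases that aligned among the 250 before the start, the Serpina1 pairs were 92.1% to 98.0% identical. Pairs with Serpina1e aligned over 188 to 199 bases, and the other pairs over 238 to 248. The stretch of 100 bases nearest the start that aligned in all 5 is shown because Serpina1e, the most variable of the 5 genes, differs from the others there at only a few bases. In Serpina1e this stretch lies farther from the start, at -162 to -63. In the other genes it ends between -12 (Serpina1c) and -1 (Serpina1d). All stretches are on the minus strand, at chr12:103863625-103863724 (Serpina1a), chr12:103738200-103738299 (Serpina1b), chr12:103904962-103905061 (Serpina1c), chr12:103773634-103773733 (Serpina1d) and chr12:103956960-103957059 (Serpina1e), and none overlaps an annotated exon of its gene. Capitals mark the 10 positions that differ in at least 1 gene.
Serpina1a: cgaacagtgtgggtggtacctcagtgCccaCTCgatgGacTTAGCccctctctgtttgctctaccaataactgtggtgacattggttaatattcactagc
Serpina1b: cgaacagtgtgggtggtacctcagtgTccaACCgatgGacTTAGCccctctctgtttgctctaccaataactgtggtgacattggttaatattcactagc
Serpina1c: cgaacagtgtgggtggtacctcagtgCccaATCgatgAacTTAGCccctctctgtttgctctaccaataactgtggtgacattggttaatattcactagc
Serpina1d: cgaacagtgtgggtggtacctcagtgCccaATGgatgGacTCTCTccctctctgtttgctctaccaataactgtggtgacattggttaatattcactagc
Serpina1e: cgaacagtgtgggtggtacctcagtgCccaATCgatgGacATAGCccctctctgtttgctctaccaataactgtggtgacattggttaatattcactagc

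Serpina3n and Serpina3c had similar promoter sequences and different levels. Over the 247 bases that aligned, their promoters were 92.7% identical, and 5 positions, in capitals, differ in the 100 bases printed here. Serpina3n stood at 124 CPM per kb and Serpina3c at 0.111 CPM per kb in wild-type liver. The stretches lie at chr12:104406605-104406704 on the plus strand for Serpina3n and chr12:104153873-104153972 on the minus strand for Serpina3c.
Serpina3n: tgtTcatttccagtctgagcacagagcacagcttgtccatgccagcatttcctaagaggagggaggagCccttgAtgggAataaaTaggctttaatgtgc
Serpina3c: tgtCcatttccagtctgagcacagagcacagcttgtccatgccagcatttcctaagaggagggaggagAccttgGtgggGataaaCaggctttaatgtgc

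TTCNNNGAA, the palindrome recognised by STAT factors, was found on neither strand of the 250 bases of any of the 7 matched promoters, against 7.02% of all promoters. AGAACA, a core recognised by the glucocorticoid receptor, was found in all 7, against 16.1% of all 32851 promoters. The 5 Serpina1 promoters are copies of each other, as are those of Serpina3n and Serpina3c, and do not count as separate matches. TATAAA was found in Serpina3c alone, against 12.4%. These motifs do not overlap by their letters at the places found, and a match is a description of letters, not of binding.

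To ask whether loss of Vaultrc5 changed these genes in liver, the genotypes were compared across all genes. None of the 9 members tested passed (edgeR quasi-likelihood test, Benjamini-Hochberg adjusted p under 0.05), and percent called over all 15329 genes was 0.0%. Serpina3c was left out by the filter on low counts. The deleted gene Vaultrc5 itself did not pass in liver (edgeR adjusted p = 0.333). At an unadjusted p under 0.05 there were 536 genes and 0 members, and the DESeq2 Wald test called 10 genes and 0 members. A block for the replicate number gave 2 calls, 0.013% of the genes tested, and again 0 members.

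Serpina1a, Serpina1b, Serpina1c and Serpina1d had log2 fold changes (knockout minus wild type) of 0.13 ± 0.14 (SE), 0.01 ± 0.13, 0.08 ± 0.17 and 0.08 ± 0.15. The value for Serpina1e was 0.39 ± 0.33. Summed into 1 row, the 5 alpha-1-antitrypsin genes gave 0.18 ± 0.17 (edgeR adjusted p = 0.992), a value that does not depend on how reads were split among them. With the replicate number as a block the sum gave 0.18 ± 0.16 (edgeR adjusted p = 0.876). The summed rows stood at 21478 ± 1948 CPM (SD, n = 3) in wild-type livers and 24354 ± 2883 CPM in knockout livers. The knockout sum was 1.12, 1.17 and 1.11 times that of the same-numbered wild type, higher in 3 of 3 pairs, but it did not pass the test with or without the block.

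Among the Serpina3 members tested, the largest log2 fold change was that of Serpina3n, at 0.59 ± 0.35 (edgeR adjusted p = 0.992). Serpina3k had 0.19 ± 0.22 and Serpina3m 0.08 ± 0.22, and all rows whose symbol starts with Serpina3, summed, gave 0.21 ± 0.21. Knockout liver 2 carried much of this: without it the value of Serpina3n was 0.09, that of Serpina3k 0.03 and that of Serpina1e 0.03. Serpina6 was the only member tested with a negative value, -0.35 ± 0.32, and stood at -0.39 ± 0.11 with the block (unadjusted p = 0.00976, edgeR adjusted p = 0.731). Single libraries moved it too, to -0.15 without knockout liver 2, -0.16 without wild-type liver 3, -0.22 without knockout liver 1 and -0.74 without knockout liver 3.

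In 0 of 9 members did the CPM ranges of the genotypes separate, where 9.82% of all genes tested in liver did so. In 5 of 9 members the knockout lay on the same side of its same-numbered wild type in all 3 numbers, against 28.9% of all genes tested. These were Serpina1a, Serpina1e, Serpina3k and Serpina3n, higher in the knockout, and Serpina6, lower. Serpina1a and Serpina1e share reads, so the members are not independent of each other. For Serpina6 the ratios of knockout to wild type were 0.655, 0.721 and 0.931, and for Serpina1e they were 1.49, 1.39 and 1.04.

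**Figure D4:**
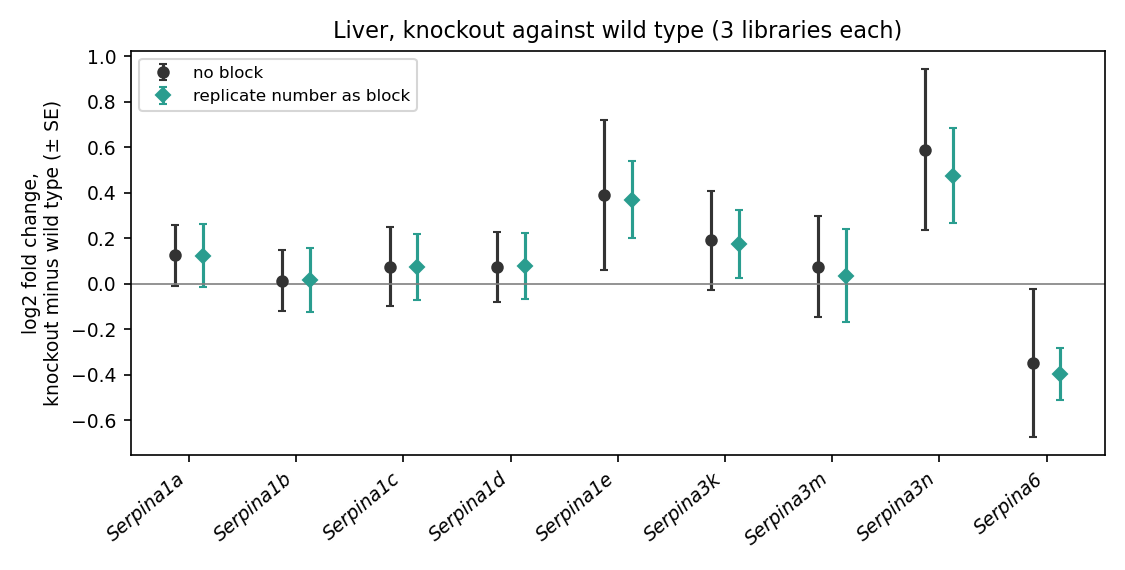
Log2 fold change of knockout against wild-type liver with its SE (y axis) for the 9 members tested (x axis), without (circles) and with (diamonds) the replicate number as a block. Serpina3n (0.59) and Serpina1e (0.39) lie farthest above 0 without the block, Serpina6 (-0.35) is the only member below 0, and no member passed the adjusted threshold in either fit.

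The one high Serpina3n value in liver came with acute-phase genes. In knockout liver 2, where Serpina3n had 613 CPM against 308 CPM in the next liver, Saa1 had 1407 CPM against 158 CPM in the next. Lcn2 had 227 CPM there against 4.90 CPM, and Hp had 3550.0 CPM against 1353 CPM. Serpina10, which encodes the protein Z-dependent inhibitor of coagulation factor X, had 274 CPM there against 120 CPM. The 4 macrophage markers summed to 298 CPM in this liver and to between 122 and 166 CPM in the other 5. All 7 acute-phase genes and all 4 macrophage markers were detected in liver, and their part in the Serpina3n difference was not tested.

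Brain held 1 member above background. Serpina3n had 76, 134 and 234 counts in wild-type brains 1, 2 and 3 and 58, 142 and 112 counts in knockout brains 1, 2 and 3. Every other member had between 0 and 3 counts in every brain library. In CPM, Serpina3n stood at 4.52, 7.39 and 13.7 in wild-type brains and at 3.83, 8.40 and 6.92 in knockout brains. The genotypes overlapped, and wild-type brain 3 was the highest of all 6.

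Serpina3n was the only member tested in brain and was not called, with a log2 fold change of -0.42 ± 0.45 (edgeR adjusted p = 1.00). Percent called over the 18075 genes tested was 0.0%, with 122 genes at an unadjusted p under 0.05 by edgeR and 0 genes called by DESeq2. Wild-type brain 3 set the sign: without it the value was 0.10. The ranges of the genotypes did not separate, where 4.24% of all genes tested in brain did. The difference of the knockout effects, liver minus brain, was 0.97 ± 0.59 for Serpina3n (edgeR adjusted p = 1.00). It was 0.48 without knockout liver 2, 0.50 without wild-type brain 3 and 1.32 without wild-type brain 1. In this comparison percent called over the 20141 genes in that fit was 0.0%, with 489 genes at an unadjusted p under 0.05. The DESeq2 Wald test called 1 gene and the fit with a block 2 genes in that comparison, and 0 members in either.

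Glial genes differed between the brain libraries beside Serpina3n. Gfap, the astrocyte filament gene that marks reactive astrocytes, had 226 CPM in wild-type brain 3 and between 55.2 and 101.1 CPM in the other 5 brains. The 5 oligodendrocyte markers summed to 6390 CPM in wild-type brain 3 and to between 1842 and 3325 CPM in the others. The 7 astrocyte markers were split: Gfap, Aqp4, Aldh1l1 and Gja1 were highest in wild-type brain 3, and Slc1a2, Slc1a3 and Sox9 were not. Their sum, mostly Slc1a2, was 5066 CPM there within a range of 4277 to 5718 CPM. The 5 choroid plexus markers also divided the brains, with sums of 249.98, 4.74 and 476 CPM in wild-type brains 1, 2 and 3 and of 651, 9.29 and 11.6 CPM in knockout brains 1, 2 and 3. In bulk tissue, fewer cells of a type and less RNA per cell cannot be told apart, and the part of these cells in the Serpina3n values was not tested.

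**Figure D5:**
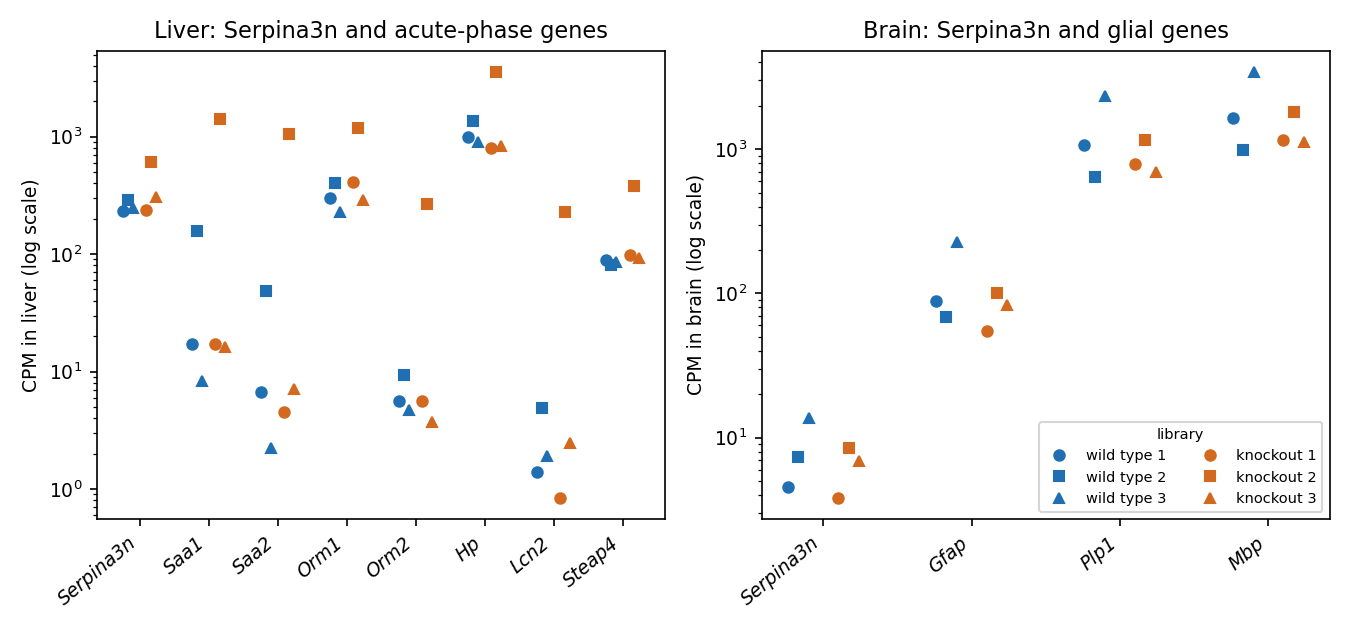
CPM per library on a log scale (y axes) for Serpina3n and 7 acute-phase genes in liver (left) and for Serpina3n and 3 glial genes in brain (right), blue for wild type and orange for knockout, with the shape giving the replicate number. Knockout liver 2 is the highest liver for all 8 genes on the left, and wild-type brain 3 is the highest brain for all 4 genes on the right.

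Between tissues, Serpina3n was the member whose test could go either way. The other 8 members tested had 0 or 1 count in every brain library and passed the filter only through liver, so that their calls as lower in brain were fixed by the filter and are given here as levels. Over all genes, percent called was 78.6% in wild-type and 78.7% in knockout tissue, and 34.7% and 35.2% were called lower in brain. In wild-type tissue 8275 genes were called higher and 6542 lower in brain, and 11635 higher and 3997 lower when scaled by library totals. Serpina3n was called lower in brain with both. Serpina1a had 0 counts in the 3 wild-type brains and was at least 19410-fold higher in liver, against a floor of 3 counts per brain library. The bounds were 18937-fold for Serpina1b, 32110-fold for Serpina1c, 14733-fold for Serpina1d, 37008-fold for Serpina3k and 849-fold for Serpina6. Serpina1e and Serpina3m had 1 count each in the wild-type brains. These ratios compare CPM scaled within each tissue, and bounds cover counting error only.

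Serpina3n was lower in brain in both genotypes. Its CPM in liver were 30.1 times those in brain in the wild type (95% interval 27.5 to 33.1, counting error only) and 59.8 times in the knockout (53.5 to 67.1). Scaled by TMM over both tissues, the log2 fold change of brain against liver was -5.77 ± 0.40 in the wild type (edgeR adjusted p = 5.61e-06) and -6.77 ± 0.50 in the knockout (edgeR adjusted p = 1.04e-05). Scaling by library totals gave -4.93 in the wild type and moved the median of all genes from 0.21 to 1.05. Serpina3c, too low for the main filter, was called lower in brain when every gene with at least 1 count was tested (edgeR adjusted p = 0.0457 for wild-type and 0.0407 for knockout tissue), on 3 and 4 counts in brain against 19 and 34 in liver.

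The table held 19 other rows whose symbol starts with Serpina. Of these, 8 reached a mean of 1 CPM in a group (Serpina10, Serpina11, Serpina12, Serpina3f, Serpina3g, Serpina4-ps1, Serpina7 and Serpina9), and 2 had no counts at all. The pseudogene Serpina4-ps1 varied widely between livers, with 92.5, 40.4 and 22.6 CPM in wild-type livers and 222, 126 and 32.8 CPM in knockout livers. Its log2 fold change was 1.29 ± 0.86 and, with the block, 1.16 ± 0.23 (edgeR adjusted p = 0.711). The genotypes overlapped, although each knockout lay above its same-numbered wild type.

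The genes around the members were described as lists. Of 16 other clade A genes, 8 were tested in liver and 0 were called in either direction, with a median log2 fold change of 0.29 beside 0.0050 over all genes tested. Agt, which encodes angiotensinogen, stood at 318 ± 13.2 CPM in wild-type livers and 301 ± 17.6 CPM in knockout livers (SD, n = 3). Of 13 serpins of other clades, all were tested and 0 called, with a median of 0.04. Serpinc1, which encodes antithrombin, had 1287 ± 31.3 CPM in wild-type livers and 1220 ± 99.96 CPM in knockout livers.

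Of 16 proteases that serpins inhibit or that work beside them, 7 were tested in liver and 0 called, with a median of -0.09. Plg, the plasminogen gene, had 1998 ± 66.9 CPM in wild-type livers and 2089 ± 187 CPM in knockout livers. Elane, which encodes the neutrophil elastase that alpha-1-antitrypsin inhibits, did not pass the filter. Of 12 factors that fold and carry secreted proteins, all were tested and 0 called, with a median of 0.08. Lman1, a cargo receptor for alpha-1-antitrypsin, had 249.96 ± 7.03 CPM in wild-type livers and 272 ± 2.51 CPM in knockout livers.

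Of 22 regulators of liver serpin genes, all were tested in liver and 0 called, with a median of 0.10. Cebpa, a hepatocyte transcription factor, was the only one with an unadjusted p under 0.05 without a block, at -0.32 ± 0.10 (edgeR unadjusted p = 0.0103, adjusted p = 0.992). With the replicate block 5 of the 22 were under 0.05 unadjusted, beside 983 of all 15329 genes (6.41%), and the smallest adjusted p was 0.483 (edgeR), for Socs3, the suppressor of cytokine signalling gene. Of 8 genes of the glucocorticoid system that Serpina6 serves, 7 were tested and 0 called, with a median of -0.06. Nr3c1, the glucocorticoid receptor gene, had -0.06 ± 0.11. In brain, 0 genes of any of these lists were called.

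The genes whose levels followed the members most closely were named by the highest Pearson correlation of log2(CPM + 1) over 6 libraries, as a description. For the summed Serpina1 rows in liver these were Ptpn6 (r = 0.997), Kcnj10 (0.996) and Slc37a1 (0.993), where the 99th percentile over genes was 0.942. Ptpn6, a phosphatase of blood cells, had 13.1, 14.4 and 11.3 CPM in wild-type livers and 15.1, 18.2 and 12.7 CPM in knockout livers. For Serpina3n in brain they were Rtl5 (r = 0.999), Mthfd2l (0.997) and Pnkd (0.994), where the 99th percentile was 0.935. The points share libraries and their depth, and no p is given.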

How the data were processed

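The values the authors deposited are expected counts, 1 column per library, without normalization or pooling. Per the submitters' processing notes, cutadapt, STAR and mm10 were named, without roles or versions. How reads were counted, and whether by strand, was not given in the sources used here. Per the labels' protocols, ribosomal RNA was depleted and stranded total RNA libraries were read single-end. The 10 members and all lists were chosen with earlier results of these data known.

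Expected counts were rounded. Genes were kept by filterByExpr (minimum count 10, minimum total 15), scaled by TMM and tested with the edgeR 4.0.16 quasi-likelihood test (R 4.3.3, robust), with Benjamini-Hochberg adjustment over all genes tested and a threshold of 0.05. Each comparison used its own 6 libraries, and the difference of effects used all 12. SE was taken as the size of the log2 fold change over the square root of its F statistic. The DESeq2 1.42.0 Wald test, other scalings and filters, unrounded counts, summed cluster rows, a replicate block and leaving out each library were alternatives. The procedure was run on simulated data with the same spread for every gene and no reads shared between genes, unlike these data. Its outcome is not given here. A level at or below 3 counts in a library was taken as the floor, and intervals at 95% cover counting error only, because PCR copies carry no molecular identifiers.

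Sequences were aligned with mafft 7.526. Coordinates are from GENCODE M21 on GRCm38. Named genes are all members, up to 4 genes of highest mean CPM from each list, genes of a list that passed a knockout comparison, Serpina rows at a mean of 1 CPM or more, and 3 genes of highest likeness. Elane and single acute-phase and marker genes were added after their values were seen, as was Socs3. A further motif that was searched is not reported here.

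Replicate numbers come from the titles. Across 13331 genes, deviations from the group means of same-numbered wild-type and knockout livers correlated at 0.33, 0.36 and 0.40. Livers of different numbers gave -0.31 to -0.06. Deviations cancel within a group, so values for different numbers must offset those for equal numbers. The numbers were taken to pair the livers, although the labels do not state it. In brain the same-numbered values were 0.65, 0.62 and -0.02 over 16731 genes. Because the last was not positive, the brains were taken to share only a number.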

Additional observations from a re-analysis of the deposited data

How the results depend on the processing

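No member passed the threshold in a knockout comparison under any alternative run, and Serpina3n stayed lower in brain than in liver in all of them. The count of genes called in the liver knockout comparison was 0, but 10 by the DESeq2 Wald test, 4 with every gene of at least 1 count tested, 2 with the replicate block, also 2 with the block and summed cluster rows (chosen after seeing the data), and 0 to 1 with 1 library left out. For the difference of effects between liver and brain it was 0, but 1 by DESeq2 and 2 with the replicate block. The causes were not tested. In brain, where the block rests on shared numbers only, it called 0 genes. The block changed no call of a member, and moved the genes called between brain and liver from 14817 to 14496 in wild-type and from 14789 to 14396 in knockout tissue.

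Of the liver fold changes, that of Serpina1b (0.01) turned to -0.026 with library totals. With 1 library left out, Serpina1b ranged from -0.036 to 0.085, Serpina1c from -0.033 to 0.19, Serpina3m from -0.17 to 0.28, Serpina1e from 0.034 to 0.68, Serpina3k from 0.026 to 0.36, Serpina3n from 0.089 to 0.84, and brain Serpina3n from -0.72 to 0.10. In liver, Serpina1a ranged from 0.060 to 0.16 and Serpina1d from 0.0028 to 0.18. With the block, the summed Serpina1 rows stood at 0.18 and the summed Serpina3 rows at 0.19, beside 0.18 and 0.21 without it. Per kb of the shortest full coding transcript, a length chosen after seeing the data, Serpina1a moved from 1833 to 2469 CPM per kb and Serpina1b from 1357 to 2350. Members called were not counted with the cluster rows summed, and differences of effects are given for Serpina3n alone, since the other members had at most 3 counts per brain library. With 3 libraries a group, and reads shared within each cluster, differences between single paralogs within the spread of the libraries were not detectable.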

Other observations

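The protease list held 1 further outlying value, chosen after it was seen. Klk1, which encodes tissue kallikrein, had 84.5 CPM in knockout brain 3 and 0 in the other 5 brain libraries.

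Alb, the albumin gene, ran against the summed Serpina1 rows across the 6 livers. Its Pearson correlation with them was -0.94, while that of Apob was 0.94, both on log2(CPM + 1) and both given without a p.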
